A study of Homo sapiens with 24 samples.

Results

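The early response of RBE cells to YC-1 was measured in 3 RNA libraries of cells treated with YC-1 against 3 libraries of cells given the vehicle DMSO, both taken after 6 h. RBE is an established human intrahepatic cholangiocarcinoma line, that is, a cancer line of the bile duct, and the study describes it as mutant for IDH1 and as expressing SULT1A1, which holds for every group here. The members are the 15327 genes with a normalised count of at least 10 in at least 3 of these 6 libraries, out of 57820 genes in the deposited table. A second such line, SNU1079, and a 16 h time point complete the series of 24 libraries, with 3 libraries a group that the design text calls biological replicates. No dose of YC-1 is stated in the labels. The time attribute of the labels gives 16 h for every DMSO library and 6 h for every YC-1 library, while the sample titles give both times for both treatments, and the titles were used. Because both groups of 3 come from one cell line, p-values measure only the spread between these libraries.

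YC-1 is a benzyl indazole that was first studied as an activator of soluble guanylate cyclase, the nitric oxide receptor, and later as an inhibitor of the hypoxia factor HIF-1. SULT1A1 is a cytosolic enzyme that transfers a sulfonate group to phenols and alcohols. Sulfonation of some benzylic and furfuryl alcohols gives an unstable ester that can alkylate proteins and DNA, and the series title places YC-1 among compounds that depend on this step. Cells meet damage to proteins or DNA, or a shortage of amino acids, with transcription programmes led by factors such as ATF4 and HSF1.

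The 6 libraries summed to 21.2 to 22 M normalised counts (M stands for 1e+06), so their totals were close. The spacing of the lowest values gives a rough depth, in M reads, of 26.5, 41 and 38.6 for the DMSO libraries and of 12, 13.3 and 32.9 for the YC-1 libraries. YC-1 replicates 1 and 2 were thus the shallowest of the 6. A group's counts without these 2 libraries, or its median, are given beside it where the counts moved by more than 1.5 times. Pearson's r of log2 values across genes was 0.986 to 0.992 among the DMSO libraries, 0.981 to 0.986 among the YC-1 libraries and 0.953 to 0.961 between treatments, and the first principal component, with 66.2% of the variance, separated the treatments. Of 14 bile duct markers 12 passed the filter, with the keratins KRT7, KRT8, KRT18 and KRT19 and the adhesion molecule EPCAM all present (KRT7 at 22910 to 31930 and EPCAM at 849 to 1021 normalised counts), whereas the chloride channel gene CFTR was near 0. The hepatocyte genes APOA2, APOB and APOC3, the lymphocyte genes CD3E and NKG7 and the stromal genes DCN and LUM were at 0 in all 6 libraries. Other members were present, among them the hepatocyte genes SERPINA1 (1190 to 1293 normalised counts) and HNF4A (137 to 162). The stromal gene ACTA2 was at 402 to 502. Bile duct markers summed to 81500 to 95550 normalised counts per library with DMSO and 94720 to 98580 with YC-1, and hepatocyte markers to 1583 to 1596 and 1534 to 1682, both with overlap between treatments. Leukocyte markers summed to 1188 to 1342 with DMSO and 1396 to 1500 with YC-1, and stromal markers to 484 to 537 and 541 to 629, so these 2 sums were higher in every YC-1 library. Most of the leukocyte sum was CD68, a lysosomal glycoprotein, which did not pass the test (0.19, adjusted p = 0.0788 by limma) but did with recomputed size factors (0.20); the part of these markers in the results was not tested.

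Within 6 h YC-1 changed the level of 6723 of the 15327 genes tested, or 43.9%, at an adjusted p under 0.05 by limma's moderated test on log2(normalised count + 1). Of these, 3231 genes (21.1%) rose and 3492 genes (22.8%) fell. The typical change was small, with a median log2 fold change of 0.61 among the genes that rose and of -0.68 among those that fell. Changes of at least 1 on the log2 scale, a doubling or halving, were called for 744 genes that rose (4.85%) and 959 that fell (6.26%). A change of at least 3 was called for 48 genes that rose and 21 that fell. For 8050 genes (52.5%) the 3 YC-1 values lay entirely on one side of the 3 DMSO values, 3889 of them above and 4161 below. The number of calls depended on which libraries shared the estimate of spread: it was 4195 (1987 higher, 2208 lower) when all 24 libraries were fitted together, of which 4169 were also called in the same direction from the 12 RBE libraries. Without the 2 shallow YC-1 libraries 4115 genes were called, 1871 higher and 2244 lower, with the lone YC-1 library assumed to vary like the other groups.

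**Figure D1:**
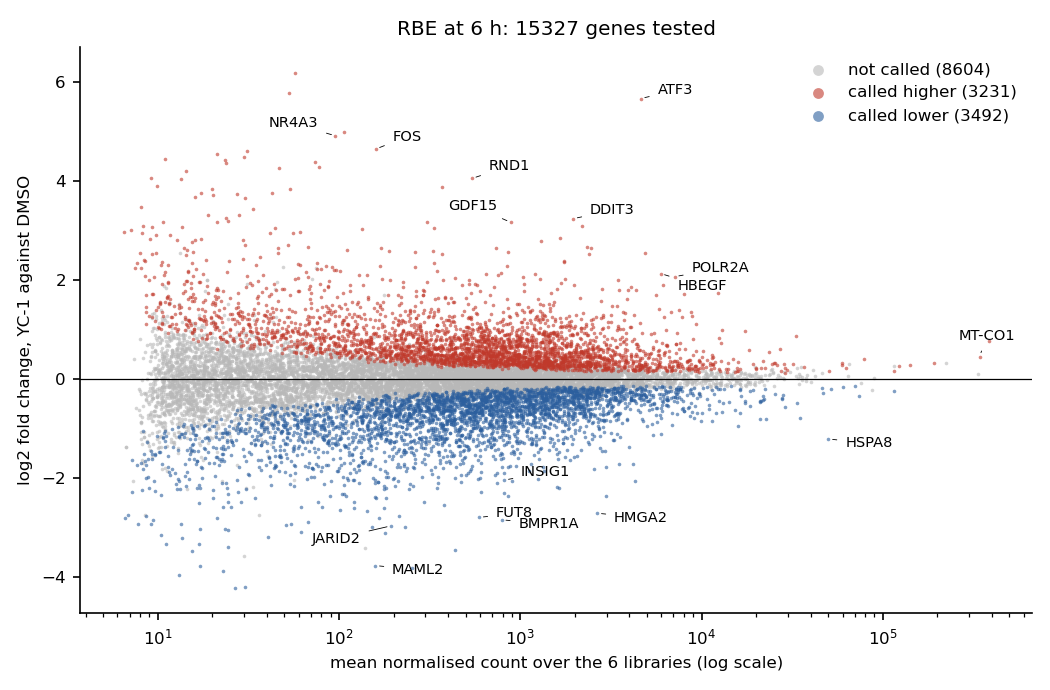
Each point is 1 of the 15327 genes, with its mean normalised count over the 6 libraries on a log axis across and its log2 fold change of YC-1 over DMSO at 6 h upward; colours mark the 3231 genes called higher and the 3492 called lower. The stress factor ATF3 stands apart at a high level with a log2 fold change of 5.66, while the falls of HMGA2 and FUT8 lie near -2.7 and -2.8.

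The highest called rise of a gene with certain counts and a mean of at least 100 in one group was that of ATF3. ATF3, a basic leucine zipper factor induced by many kinds of stress (chr1:212565334-212620777, plus strand, GRCh38), was at 182, 171 and 181 normalised counts in the DMSO libraries and at 8793, 9428 and 8984 in the YC-1 libraries. Its log2 fold change was 5.66 ± 0.19 (SE; adjusted p = 4.81e-11), below the fitted values of RPL36A-HNRNPH2 and ZRSR1, whose counts are uncertain. NR4A3, an orphan nuclear receptor, was at 3, 6.79 and 6.67 and then at 192, 192 and 174 (4.91 ± 0.29). The DMSO and YC-1 values of both genes were far apart, and all DMSO values of NR4A3 were under the filter level of 10. SELPLG, the selectin ligand PSGL-1, was at 3.37, 6.88 and 7.16 with DMSO and 195, 219 and 207 with YC-1 (4.99 ± 0.26). RND1, an atypical small GTPase that loosens the actin skeleton, went from 71.5, 57.9 and 53.8 to 1006, 1127 and 935 (4.05 ± 0.15). SLFN5, of the Schlafen family, was already expressed at 341, 511 and 556 and reached 3997, 4002 and 3759 (3.09 ± 0.14). In each of these genes the 3 YC-1 values were close to one another. That they lay above every DMSO value is required by the choice of genes. LSMEM1 (4.29) and GUCA1B (3.84), which encodes an activator of photoreceptor guanylate cyclase, also rose; they are among the 15 highest genes with a mean of at least 100 in one group. The 2 highest fitted values, for the read-through transcript RPL36A-HNRNPH2 (6.18 ± 0.58) and for ZRSR1 (5.77 ± 0.93), a processed copy of a splicing factor gene, are uncertain, because reads of near-identical or overlapping genes may have been divided between them.

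The genes with the lowest values by the same rule had varied functions. HMGA2, a chromatin architectural protein typical of embryonic and cancer cells (chr12:65824131-65966295, plus strand), was at 4274, 5178 and 4426 normalised counts with DMSO and at 704, 739 and 659 with YC-1 (log2 fold change -2.72 ± 0.09, adjusted p = 4.12e-11). FUT8, the enzyme that adds core fucose to N-glycans (chr14:65410592-65744121, plus strand), was at 1161, 1008 and 950 and then at 131, 155 and 159 (-2.80 ± 0.11, adjusted p = 2.77e-10). The highest YC-1 value lay below the lowest DMSO value in both genes, which the choice of genes requires. LINC00704, a long noncoding RNA, was at 844, 780 and 783 and then at 90.9, 59.9 and 69.2 (-3.45 ± 0.15). GLI2, a transcription factor of the Hedgehog pathway, was at 368, 314 and 436 and then at 48.7, 38.3 and 78.9 (-2.78). Falls of -2.65 to -3.12 were also called for RGL1, an exchange factor for Ral GTPases, RFXAP, a subunit of the complex that drives MHC class II genes, the secreted kinase PKDCC, the heparan sulfate sulfotransferase HS3ST1, the stress kinase MAP3K5 (ASK1) and the orphan receptor NR6A1. EIF3CL, a near-identical copy of EIF3C, had the lowest fitted value (-3.83 ± 1.35, adjusted p = 0.0335), but its DMSO values of 688, 187 and 386 and its YC-1 values of 0, 127 and 134 were scattered; it was not called without DMSO replicate 1 or 3, without YC-1 replicate 1 or with all 24 libraries, and how reads were divided between the copies was not tested.

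**Figure D2:**
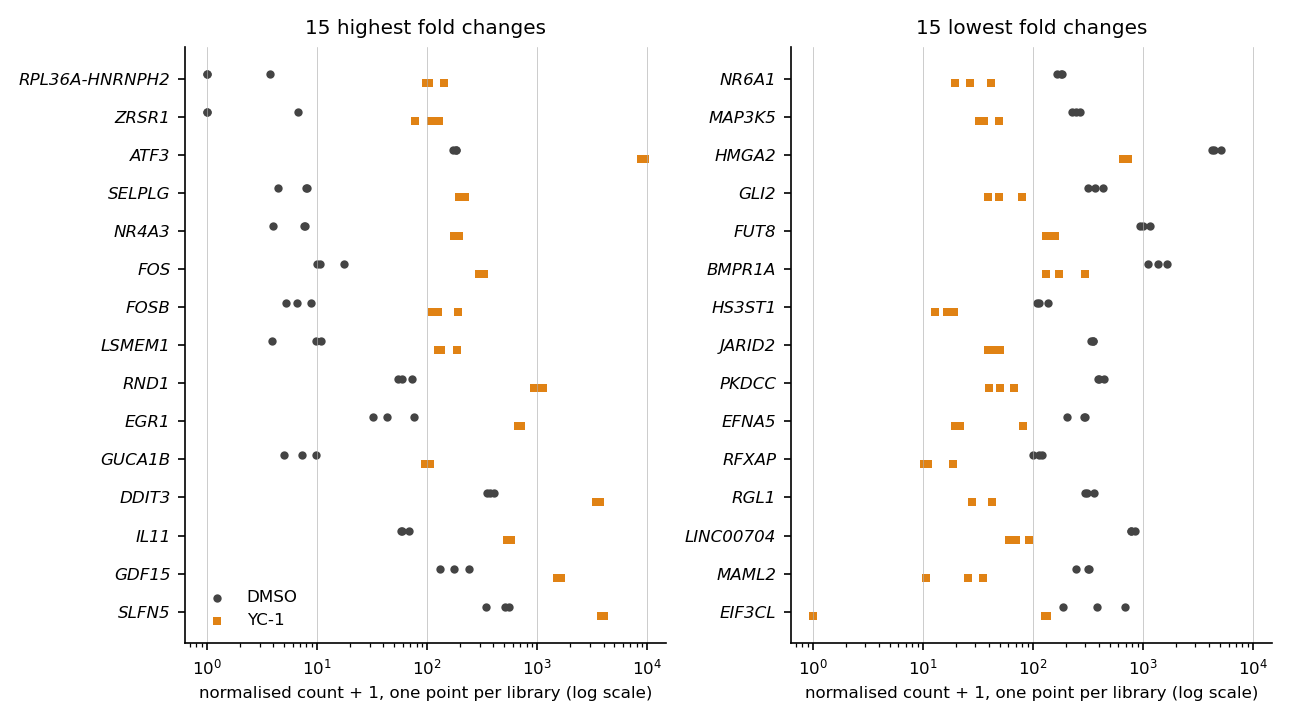
Normalised counts of the 15 genes with the highest and the 15 with the lowest log2 fold change among called genes without overlap whose higher group averaged 100 or more, 1 point per library on a log axis, for DMSO and YC-1 at 6 h. In each gene the 3 YC-1 points lie on one side of the 3 DMSO points, which the choice of genes requires, and ATF3 spans 171 to 9428.

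In the stress response led by ATF4 and CHOP, 16 of 23 list members tested rose and 3 fell, with a median log2 fold change of 1.05, against -0.01 over all genes tested. The number that fell was 1 without the 2 shallow YC-1 libraries or with all 24 libraries. Of 7 factors 5 rose and 1 fell, of 10 effectors 9 rose and of 6 upstream kinases and targets 2 rose and 2 fell. Among the factors, DDIT3, which encodes CHOP, was at 401, 374 and 352 normalised counts with DMSO and at 3422, 3465 and 3752 with YC-1 (3.24 ± 0.09, adjusted p = 1.6e-11). ATF4 was high in both groups, at 7460, 6650 and 6793 with DMSO and 6421, 6389 and 6912 with YC-1, and its difference of -0.08 did not pass the test (adjusted p = 0.281). ATF4 is controlled mainly through translation, which RNA levels do not show. PPP1R15A (GADD34), which directs a phosphatase to eIF2 alpha and so reverses the block of translation, was at 740, 651 and 643 and then at 4159, 4380 and 4219 (2.65 ± 0.08). GADD45A, a growth arrest protein, reached 2886, 2933 and 2878 from 462, 403 and 357 (2.84 ± 0.08). STC2, a secreted glycoprotein, reached 2299, 2486 and 2002 from 366, 290 and 323 (2.79 ± 0.12). The values of DDIT3, PPP1R15A, GADD45A and STC2 did not overlap between treatments, whereas those of ATF4 did. The list also held the mTORC1 inhibitor SESN2 (1.81), the pseudokinase TRIB3 (1.01) and the death receptor TNFRSF10B (0.93), all higher. EIF2AK4, the kinase GCN2 that senses uncharged tRNA, fell (-0.54).

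Of 41 genes of amino acid supply tested 29 rose with 0 lower, at a median of 0.39; 1 of the 41, which was not called, entered the test only through its YC-1 libraries. By limma's unadjusted p under 0.05 the number lower was also 0, as it was for every count of 0 below unless another number is given. Of 10 transporters 8 rose, of 11 synthesis enzymes 9 and of 20 cytosolic tRNA synthetases 12. SLC3A2, the heavy chain shared by several amino acid exchangers, was at 1945, 1932 and 1944 and then at 7034, 6537 and 6696 (1.80 ± 0.05). Its partner SLC7A11, the cystine carrier, was at 1152, 1739 and 1556 and then at 3355, 3174 and 2927 (1.11 ± 0.12). The values of both genes did not overlap between treatments. ASNS, asparagine synthetase, went from 3792, 3828 and 3436 to 8654, 8698 and 8786 (1.24 ± 0.05, adjusted p = 7.08e-10). CTH, which makes cysteine from cystathionine, was low at 18.5, 15.7 and 19 and then at 70.1, 55.5 and 85 (1.91). Rises of tRNA synthetases were smaller, and that of IARS, for isoleucine, did not pass the test (0.08).

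The sequences upstream of a few of these genes show what the promoter tables can and cannot say. The C/EBP-ATF response element, searched as TGATGNAA on both strands, is bound by ATF4 with C/EBP partners. It occurred in 3.67% of all 27305 human promoter windows of RefSeq (250 bases before to 50 after a gene's start, GRCh38.p14). It was in 1.70% of the 10839 windows matched to the genes tested, 2.07% of those called higher and 1.75% of those called lower. Among genes that rose by at least 2 on the log2 scale it was in 8% (6 of 75), and among those that fell by at least 2 in 3.30% (3 of 91). Of the amino acid supply genes with a window 31.2% held it (10 of 32). FUT8, which fell, also holds it, 187 bases before its start, and is not printed. In the 3 windows printed here, which were picked because they hold the element, its letters are in capitals and the sequences are the 250 bases before the start, 5′ to 3′ along the gene. The element lies 191 bases before the start in ATF3, 68 in ASNS and 209 in CHAC1, a glutathione-degrading enzyme that rose from 364, 212 and 309 to 1275, 1252 and 1264 normalised counts (2.13 ± 0.16) and that was chosen after its values were seen. In ASNS it overlaps a match to the heat shock element described below. A match is a description of letters and not evidence of binding.
ATF3, chr1:212565157-212565406, plus strand: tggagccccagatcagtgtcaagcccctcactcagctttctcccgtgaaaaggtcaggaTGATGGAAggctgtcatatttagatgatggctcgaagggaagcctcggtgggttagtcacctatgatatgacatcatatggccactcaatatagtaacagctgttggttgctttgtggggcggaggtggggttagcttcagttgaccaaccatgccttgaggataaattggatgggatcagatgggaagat
ASNS, chr7:97872409-97872658, minus strand: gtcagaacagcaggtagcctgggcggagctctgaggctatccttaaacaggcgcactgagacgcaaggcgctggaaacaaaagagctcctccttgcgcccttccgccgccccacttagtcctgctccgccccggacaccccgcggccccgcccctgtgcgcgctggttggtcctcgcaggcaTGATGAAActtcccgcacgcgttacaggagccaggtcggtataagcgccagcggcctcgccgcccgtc
CHAC1, chr15:40953221-40953470, plus strand: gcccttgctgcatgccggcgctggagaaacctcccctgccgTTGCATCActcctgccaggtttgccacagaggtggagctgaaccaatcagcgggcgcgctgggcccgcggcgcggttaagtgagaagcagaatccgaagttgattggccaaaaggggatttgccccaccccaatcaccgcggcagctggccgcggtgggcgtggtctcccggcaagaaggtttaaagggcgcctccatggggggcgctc

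The EGR, NR4A and related factors rose in 12 of 12 tested, at a median of 1.97, but 4 of these 12, EGR2, EGR3, ARC and NR4A3, entered the test only through their YC-1 libraries, and ARC was not called without the 2 shallow libraries. EGR1, a zinc finger factor induced by growth signals, was at 75.4, 31.1 and 42 with DMSO and at 666, 702 and 709 with YC-1 (3.88 ± 0.23). NR4A2 was at 9.43, 14.2 and 12.6 and then at 87.1, 75.7 and 77.2 (2.65). Among 15 AP-1 factors tested, the dimers that bind TGACTCA, 11 rose and 2 fell; FOSB entered the test only through its YC-1 libraries. The number that fell was 0 without DMSO replicate 2, without DMSO replicate 3, without YC-1 replicate 3 or without the 2 shallow libraries, and 1 without YC-1 replicate 1 or 2. FOS (chr14:75278774-75282230, plus strand) was at 9.65, 16.5 and 9.05 and then at 302, 326 and 295 (4.64 ± 0.25, adjusted p = 7.57e-09). FOSB was at 7.87, 4.17 and 5.61 and then at 125, 191 and 111 (4.38 ± 0.40). The small MAF factor MAFF was at 254, 243 and 240 and then at 1379, 1550 and 1450 (2.56 ± 0.07). The values of FOS, FOSB and MAFF did not overlap between treatments. FOSL1, another FOS protein, did not pass the test (0.16) except without DMSO replicate 1.

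The zinc finger factors of the KLF family were mixed, with 7 of 12 higher and 3 lower. KLF4, a regulator of epithelial differentiation, was at 524, 519 and 458 and then at 1450, 1422 and 1381 (1.5 ± 0.08), and KLF5 rose by 1.44. KLF12 was at 182, 357 and 357 and then at 104, 117 and 63.2 (-1.62 ± 0.34). Feedback genes of MAP kinase signalling rose in 8 of 16 and fell in 3. DUSP1, a phosphatase that switches off MAP kinases, was at 584, 516 and 574 and then at 2987, 2936 and 2824 (2.38 ± 0.07), and DUSP8 (1.68) and DUSP6 (1.51) also rose. SPRED2, an inhibitor of RAS to MAP kinase signalling, fell (-1.13). Of 11 regulators of mRNA decay 7 rose and 1 fell. BTG2, which promotes removal of poly(A) tails, was at 587, 563 and 553 and then at 2940, 2899 and 2927 (2.36 ± 0.07). CNOT6L, one of the deadenylases of the CCR4-NOT complex, was at 307, 422 and 375 and then at 100, 95.7 and 103 (-1.86 ± 0.22).

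The cyclic AMP response element TGACGTCA, a site of the CREB and ATF family, was counted in the same windows. It was present in 1.98% of all promoter windows, 3.21% of those of genes tested, 5.40% of those called higher and 2.53% of those called lower. Among genes that rose by at least 2 on the log2 scale it was in 9 of 75 windows, or 12%, and among those that fell by at least 2 in 2.20%. These 9 genes, named because the count is short enough to list, were SLC25A25 (2.66), PPP1R15A (2.65), MAFF (2.56), AVPI1 (2.52), HIST2H3C (2.40), DUSP1 (2.38), HIST2H3A (2.35), MAF (2.30) and ZNF547 (2.18). HIST2H3C and HIST2H3A are near-identical copies and count as 1 source. At DMSO means of 2.17 and 1.98 they entered the test only through their YC-1 libraries, and the 12% includes them. TATAAA was in 18.7% of windows of genes that rose by at least 2 (14 of 75), in 6.67% of all those called higher and in 5.55% of those of genes tested. It was also in 9.89% of windows of genes that fell by at least 2 (9 of 91) and in 5.28% of all those called lower. FOSB, among the genes that rose by at least 2, entered the test only through its YC-1 libraries. Printed are the 250 bases before the start of the 3 genes with the element whose counts are given above, with the element in capitals. MAF, of the AP-1 list, also holds the element and is not printed. FOS and FOSB are printed in the same way with TATAAA in capitals. The element lies 58 bases before the start in PPP1R15A, 54 in MAFF and 125 in DUSP1, and TATAAA lies 33 bases before the start in FOS and 30 in FOSB.
PPP1R15A, chr19:48872171-48872420, plus strand: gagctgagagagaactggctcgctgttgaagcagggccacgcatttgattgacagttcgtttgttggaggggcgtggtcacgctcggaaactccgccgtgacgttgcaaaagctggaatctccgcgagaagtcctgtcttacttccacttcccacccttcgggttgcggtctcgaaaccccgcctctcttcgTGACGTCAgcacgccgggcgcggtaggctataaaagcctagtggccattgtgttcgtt
MAFF, chr22:38201744-38201993, plus strand: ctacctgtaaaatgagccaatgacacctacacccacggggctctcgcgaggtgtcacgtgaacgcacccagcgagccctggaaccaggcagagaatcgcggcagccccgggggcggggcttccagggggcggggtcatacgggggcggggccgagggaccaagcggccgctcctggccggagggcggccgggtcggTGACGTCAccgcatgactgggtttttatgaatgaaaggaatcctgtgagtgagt
DUSP1, chr5:172771196-172771445, minus strand: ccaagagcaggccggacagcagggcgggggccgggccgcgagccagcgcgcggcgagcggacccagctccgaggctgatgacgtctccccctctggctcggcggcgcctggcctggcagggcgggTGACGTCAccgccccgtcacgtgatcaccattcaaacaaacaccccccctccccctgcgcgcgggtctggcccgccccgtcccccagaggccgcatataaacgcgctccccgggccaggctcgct
FOS, chr14:75278578-75278827, plus strand: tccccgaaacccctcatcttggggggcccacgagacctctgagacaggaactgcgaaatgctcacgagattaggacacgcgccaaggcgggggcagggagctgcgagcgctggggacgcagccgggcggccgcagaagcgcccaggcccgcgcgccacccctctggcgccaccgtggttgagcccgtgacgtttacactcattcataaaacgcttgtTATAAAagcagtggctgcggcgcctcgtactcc
FOSB, chr19:45467746-45467995, plus strand: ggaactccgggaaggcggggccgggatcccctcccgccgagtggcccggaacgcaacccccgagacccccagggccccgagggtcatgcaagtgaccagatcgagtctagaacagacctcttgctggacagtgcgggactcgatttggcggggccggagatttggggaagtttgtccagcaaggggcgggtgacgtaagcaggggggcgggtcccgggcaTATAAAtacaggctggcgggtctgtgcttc

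Of 5 single genes tied to growth arrest, stress signalling or cell death, 4 rose and 1 did not pass the test; no count over a list is given for them. GDF15, a secreted stress cytokine, was at 241, 130 and 176 and then at 1517, 1603 and 1649 (3.16 ± 0.17). PMAIP1 (NOXA), a BH3 protein that neutralises MCL1, was at 1395, 1609 and 1309 and then at 8014, 8862 and 8199 (2.54 ± 0.08). In both genes every YC-1 value lay above every DMSO value. PLK3, a stress-responsive kinase, rose by 2.12 ± 0.14, and CDKN1A (p21), the CDK inhibitor, which was chosen after its values were seen, went from 5389, 4406 and 5019 to 12240, 12400 and 13220 (1.36 ± 0.07). The death effector BAX did not pass the test (-0.07).

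Among 14 members of the BCL2 family tested, 4 rose (28.6%) and 3 fell (21.4%), beside 21.1% and 22.8% of all genes tested. With all 24 libraries 2 rose. Besides PMAIP1, the BH3 gene BBC3 (PUMA) went from 124, 82.1 and 94.1 to 236, 180 and 205 (1.05 ± 0.21). MCL1, a short-lived survival protein, fell from 11380, 12470 and 11270 to 7312, 7411 and 7109 (-0.68 ± 0.07), and the BH3 gene BMF fell by 1.35 on the log2 scale. In the MYC network 2 of 11 rose (18.2%), a share near that of all genes, and 1 fell (9.1%). MXD1, which competes with MYC for MAX, was at 256, 295 and 306 and then at 1206, 1264 and 1195 (2.10 ± 0.08), while MYC itself rose by 0.47 ± 0.07 from 3411, 3052 and 3219 to 4449, 4419 and 4522, and MGA, another MAX partner, fell (-1.04). Of 17 clock genes 8 rose and 2 fell. PER1, a repressor of the clock, was at 68.6, 57.7 and 42.1 and then at 268, 387 and 194 (2.28 ± 0.27), and NR1D1 (1.99 ± 0.15), HLF (1.68) and PER2 (1.55) rose too, whereas CRY1 did not pass the test (0.06).

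The unfolded protein response of the endoplasmic reticulum was split, with 9 of 23 members higher and 5 lower at a median of -0.02; the number lower was 3 without DMSO replicate 1, without YC-1 replicate 3 or without the 2 shallow YC-1 libraries. XBP1, the factor spliced by the sensor IRE1, was at 1911, 1805 and 1712 and then at 5082, 4882 and 5143 (1.48 ± 0.06), and ERN1, which encodes IRE1, rose by 0.90. HERPUD1, a factor of protein degradation at the reticulum, rose by 1.02 ± 0.09. HSPA5 (BiP), the main chaperone of the reticulum, was at 24490, 23990 and 22220 and then at 42810, 43150 and 43170 (0.87 ± 0.05). HSP90B1, another abundant chaperone of the reticulum, did not pass the test (-0.07), so the chaperones did not move as a block.

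Of 24 heat shock genes tested 3 rose and 15 fell, at a median of -0.22, and the number that fell was 6 without the 2 shallow YC-1 libraries and 8 with all 24 libraries fitted together. HSPA8, the constitutive HSP70 (chr11:123057489-123063230, minus strand), lost more normalised counts than any other gene (on this scale long transcripts weigh more): it was at 67380, 71910 and 71190 and then at 30300, 30530 and 29690 (-1.22 ± 0.06, adjusted p = 4.71e-09). The inducible pair HSPA1A (2800, 2043 and 2045, then 883, 822 and 837; -1.42 ± 0.11) and HSPA1B (-1.43 ± 0.11) fell together, but their transcripts are near-identical and reads may have been divided between them. The small heat shock protein HSPB8 rose from 991, 943 and 951 to 2086, 1961 and 2113 (1.09), as did DNAJB4 (1.04). The co-chaperone FKBP4 did not pass the test (-0.11). The heat shock element, searched as GAANNTTC on both strands, was in 36.4% of the windows of this list (8 of 22) against 4.8% of the windows of genes tested. HSPA8 holds it 230 and 50 bases before its start, in capitals.
HSPA8, chr11:123062137-123062386, minus strand: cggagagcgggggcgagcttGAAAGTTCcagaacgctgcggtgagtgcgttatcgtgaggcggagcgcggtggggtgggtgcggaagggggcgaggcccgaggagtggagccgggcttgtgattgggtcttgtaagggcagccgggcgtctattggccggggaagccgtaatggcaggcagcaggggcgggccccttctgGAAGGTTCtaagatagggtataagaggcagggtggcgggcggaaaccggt

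Targets of the antioxidant factor NRF2 were mixed, with 7 of 26 higher and 7 lower at a median of -0.04. Both shares were 26.9%, near the 21.1% and 22.8% of all genes tested. OSGIN1, a growth inhibitor induced by oxidative stress, rose most (1.48 ± 0.17), followed by the cystine carrier SLC7A11 described above and SRXN1, which repairs oxidised peroxiredoxins (0.76). The aldo-keto reductase AKR1C1 (-0.91), whose close copies make its counts uncertain, and the efflux pump ABCC2 (-0.78) fell, and the classical target NQO1 did not pass the test (-0.05).

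In the cholesterol and fatty acid list 14 of 34 fell, 3 rose and 17 did not pass the test, at a median of -0.19. The number that rose was 1 without DMSO replicate 1 or 3, without YC-1 replicate 1 or 2, without both of these YC-1 libraries or without either first replicate at 16 h. It was also 1 with either other scaling (equal sums or ribosomal protein genes), with all 24 libraries and with the 6 libraries alone. INSIG1, which holds the sterol sensor SCAP in the reticulum and is itself induced when sterols are low (chr7:155297776-155310235, plus strand), was at 1265, 1342 and 1348 and then at 293, 323 and 339 (-2.05 ± 0.08). SQLE, squalene epoxidase, was at 3816, 3982 and 3583 and then at 1713, 1762 and 1631 (-1.16 ± 0.07). Both genes were lower in every YC-1 library than in any DMSO library. INSIG2 (-1.16) and ELOVL6, which lengthens fatty acids (-1.40), fell as well, and the citrate lyase ACLY did not pass the test (-0.12). The sterol response element TCACNCCAC was found in 0 of the 14 windows matched to this list and the CCAAT box in 78.6% (11 of 14), against 1.10% and 36.4% of the windows of genes tested.

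Among inflammatory genes 11 of 23 rose and 3 fell, at a median of 0.43, with 6 of 10 cytokines higher; 2 of the 23 entered the test only through their YC-1 libraries. IL11, a cytokine of the interleukin-6 family (chr19:55364389-55370463, minus strand), was at 57.5, 67.1 and 57.2 and then at 546, 531 and 578 (3.17 ± 0.11). CXCL8, a neutrophil attractant, was at 99.8, 95.5 and 78.6 and then at 445, 467 and 397 (2.25 ± 0.24). CCL20 was near the filter level, at 10.9, 14.4 and 7.04 and then at 25.2, 44.7 and 31 (1.57) and was not called without the 2 shallow libraries. TNFAIP3 (A20), a feedback inhibitor of NF-kB, rose by 1.35 ± 0.12. Interferon genes held 3 of 18 higher and 4 lower, or 1 and 3 without the 2 shallow libraries, shares near those of all genes: IRF7, a factor of the interferon response, rose (2.03) except without the 2 shallow libraries, while IFIT1, an antiviral RNA-binding protein, was at 57.4, 53.3 and 42.9 and then at 12.9, 13.2 and 11.4 (-1.95).

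In the EGF receptor family 5 of 12 tested rose and 5 fell; 3 fell without the 2 shallow libraries and 3 rose with all 24 libraries. Of 9 ligands and feedback genes 5 rose and 3 fell, and of 3 receptors 2 fell. HBEGF, a membrane-anchored ligand, was at 2251, 2238 and 2154 and then at 9609, 9776 and 9637 (2.13 ± 0.06). EREG, a further ligand (1.42), and the receptor's intracellular inhibitor ERRFI1 (1.28) also rose. EGFR was at 7399, 9777 and 10140 and then at 4947, 4593 and 4621 (-0.93 ± 0.10).

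Members of the Notch pathway moved in both directions, with 8 of 18 higher and 8 lower; 5 fell without the 2 shallow libraries, and 2 of the 18 entered only through their YC-1 libraries. MAML2, a coactivator of Notch transcription complexes (chr11:95976598-96343180, minus strand), was at 245, 319 and 320 and then at 34.6, 9.74 and 24.7 (-3.78 ± 0.65, adjusted p = 3.2e-04), and its relative MAML3 was at 30.6, 28.8 and 60.5 and then at 15, 0 and 5.42 (-3.05). The ligand DLL4 was at 2.92, 5.19 and 2.51 and then at 19.9, 37.1 and 36.4 (2.82), and the target HEY1 rose from 53.8, 55.1 and 61.5 to 221, 223 and 200 (1.90). MAML2 and MAML3 were thus lower and HEY1 higher in every YC-1 library than in any DMSO library.

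Wnt pathway genes fell in 15 of 23 tested and 0 rose, at a median of -0.75; 1 of the 15, AXIN2, entered the test only through its DMSO libraries. TCF7L2, a DNA-binding partner of beta-catenin, was at 311, 450 and 485 and then at 53.4, 143 and 94.5 (-2.17 ± 0.30). ZNRF3, a ligase that removes Wnt receptors, was at 356, 412 and 432 and then at 83.9, 101 and 87.9 (-2.12 ± 0.15), and its homologue RNF43 was at 36.5, 60.5 and 50.9 and then at 4.31, 9.83 and 10.8 (-2.49 ± 0.41). AXIN2, a feedback target of the pathway, was at 19.9, 23 and 15.2 and then at 0, 2.29 and 2.4 (-3.17 ± 0.57). The co-receptor LRP6 also fell (-1.35).

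The TGF-beta and BMP list fell in 16 of 32 and rose in 5, at a median of -0.50. BMPR1A, a BMP receptor (chr10:86756601-86932838, plus strand), was at 1113, 1368 and 1669 and then at 172, 132 and 295 (-2.85 ± 0.39). SMAD6, an inhibitory SMAD, was at 346, 345 and 338 and then at 83.7, 67.3 and 94.2 (-2.07 ± 0.17), and the ligase SMURF2 fell by 1.65 on the log2 scale. INHBA, which encodes the activin A subunit, rose, at 74.2, 102 and 101 and then at 369, 387 and 315 (1.95 ± 0.25).

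Of 15 Eph receptors and ephrins tested 7 fell and 2 rose; without the 2 shallow libraries 1 rose. EFNA5 was at 202, 288 and 300 and then at 20.6, 80.4 and 18.6 (-3.0 ± 0.45), and EFNA4 was at 166, 140 and 142 and then at 21.4, 38.3 and 26.8 (-2.37). EPHB1 was at 111, 135 and 145 and then at 19.5, 17.9 and 30.8 (-2.5 ± 0.82, adjusted p = 0.0235), and was not called without DMSO replicate 2 or 3 or YC-1 replicate 1 or 2. These are membrane-bound ligands and receptors of contact between cells. RND3, a small GTPase related to RND1, was at 1553, 1673 and 1494 and then at 5446, 5671 and 5219 (1.79).

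Chromatin lysine methylation genes fell in 19 of 34 and rose in 4, at a median of -0.35. Of 19 methyltransferases and Polycomb proteins 10 fell and 0 rose (2 at an unadjusted p). JARID2, which recruits Polycomb complex PRC2 (chr6:15246296-15522040, plus strand), was at 334, 351 and 348 and then at 41.9, 49.3 and 38.6 (-2.97 ± 0.35), and the methyltransferases EHMT1 (-1.87) and KMT2C (-1.76) fell. The 2 related demethylases of histone H3 lysine 27 moved apart: KDM6A was at 831, 811 and 876 and then at 236, 278 and 224 (-1.77 ± 0.10), and KDM6B was at 122, 64 and 96.1 and then at 650, 670 and 376 (2.58 ± 0.36). Mutant IDH1 makes 2-hydroxyglutarate, which inhibits TET enzymes, the dioxygenases that begin removal of methyl groups from DNA. IDH1 itself, at 3750, 4059 and 3683 and then at 3801, 3979 and 3715, did not pass the test (0.00, adjusted p = 0.99). TET1 was at 33.7, 50.8 and 51.4 and then at 7.28, 1.62 and 2.67 (-3.40 ± 0.47), TET3 fell by 1.45 and TET2 by 1.14 on the log2 scale. TET1 entered the test only through its DMSO libraries. In this list of 11 the number that fell was 4 (36.4%) and the number that rose 2 (18.2%), beside 22.8% and 21.1% of all genes tested. The number that rose was 1 without YC-1 replicate 2, without the 2 shallow libraries or with scaling to ribosomal protein genes, and 0 with all 24 libraries.

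POLR2A, the catalytic subunit of RNA polymerase II (chr17:7484366-7514616, plus strand), was at 2351, 2541 and 3438 and then at 11520, 11660 and 11180 (2.06 ± 0.10, adjusted p = 2.85e-09). Of 12 polymerase II subunits 3 rose (25%), a share near the 21.1% of all genes tested, and 1 fell (8.3%, beside 22.8%). Of 24 pause release and elongation factors 11 rose (45.8%) and 4 fell (16.7%). The other polymerase subunits lay between -0.35 and 0.53. The cyclin of the elongation kinase P-TEFb, CCNT1, rose by 1.03 and MEPCE, which stabilises the RNA that restrains this kinase, by 1.04, while the elongation complex subunit AFF1 fell (-0.95). Without the 2 shallow libraries 3 of the 36 genes of both groups fell, against 5 with all libraries.

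Splicing factors rose in 15 of 33 and fell in 8, or in 10 and 5 without the 2 shallow libraries. SRSF6, an SR protein, was at 2715, 3037 and 2869 and then at 6335, 6308 and 6199 (1.13 ± 0.06), and TRA2A rose by 1.05. HNRNPA1, an abundant RNA-binding protein that often opposes SR proteins, fell from 29260, 29590 and 28120 to 16140, 16630 and 16650 (-0.82 ± 0.05), and SRPK2, a kinase of SR proteins, fell by 1.04 on the log2 scale. Of 33 nucleolar factors of ribosome biogenesis 18 rose and 4 fell, among them NOB1 (1.06), NOP2 (1.04) and RRN3, an initiation factor of RNA polymerase I (1.04), whereas nucleolin (NCL) did not pass the test (0.17). Spliced host transcripts of small nucleolar RNAs rose in 11 of 14 with 0 lower, at a median of 0.95. SNHG15 was at 235, 193 and 200 and then at 818, 805 and 884 (2.0 ± 0.11), SNHG1 at 1819, 1869 and 1619 and then at 6184, 6176 and 6009 (1.79), and GAS5 at 2410, 2362 and 2118 and then at 5352, 5012 and 5223 (1.18). Several such hosts are known to be degraded by nonsense-mediated decay when they are translated.

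Of 32 mitotic genes tested 19 fell and 1 rose, at a median of -0.33; 12 fell without the 2 shallow libraries and 11 with all 24 libraries, and the 1 that rose, PRC1 (0.17), was not called without any single 6 h YC-1 library or without the 2 shallow ones. TTK, a spindle checkpoint kinase, was at 1486, 1701 and 1613 and then at 796, 836 and 792 (-0.98 ± 0.08), and AURKA, a kinase of the spindle poles, was at 3503, 3494 and 3427 and then at 1813, 1942 and 1905 (-0.88 ± 0.07). BUB1B, another checkpoint kinase, fell too (-0.78), and the proliferation marker MKI67 did not pass the test (0.12). In these bulk libraries fewer cells in mitosis and less RNA per cell cannot be told apart. Of 40 G1/S and replication genes 15 rose and 9 fell, or 7 and 6 without the 2 shallow libraries. CDK6, a kinase of G1 progression, was at 3697, 5054 and 5092 and then at 1918, 2083 and 1791 (-1.24 ± 0.12), and E2F1, a factor of S phase entry, was at 1054, 903 and 1000 and then at 1684, 1641 and 1596 (0.74).

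Of 28 Fanconi and homologous recombination genes 8 rose and 5 fell, or 6 and 3 without the 2 shallow libraries, and of 26 nucleotide excision repair genes 10 rose and 3 fell, or 5 and 0. The shares were 28.6% and 17.9% for the first list and 38.5% and 11.5% for the second, beside 21.1% and 22.8% of all genes tested. XPC, which recognises bulky DNA lesions, rose by 1.20.

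Mitochondrial transcripts made up 7.36%, 6.82% and 7.82% of the DMSO libraries and 10.7%, 7.96% and 10.5% of the YC-1 libraries. MT-RNR2, the large mitochondrial ribosomal RNA, gained more normalised counts than any other gene, from 280900, 265200 and 302400 to 528000, 413400 and 514800, a log2 fold change of 0.77 ± 0.08 that was not called with all 24 libraries. MT-CO1, a subunit of cytochrome c oxidase, was at 287600, 271200 and 301800 and then at 440400, 306100 and 444000 (0.45 ± 0.11), with YC-1 replicate 2 the closest to the DMSO libraries. Of 13 mitochondrially encoded mRNAs 8 rose with 0 lower; the number was 4 without DMSO replicate 2, 3 without YC-1 replicate 1, 4 without YC-1 replicate 3, 3 when the libraries were scaled to ribosomal protein genes and 0 with all 24 libraries. Cytosolic ribosomal protein genes were nearly level, with 7 of 48 higher and 1 lower at a median of 0.06, but these counts depended on the setting: 16 were higher without DMSO replicate 1, 11 with recomputed size factors, 2 without the 2 shallow libraries and 2 with all 24 libraries, and 4 were higher and 4 lower with scaling to ribosomal protein genes. TUBB, a beta-tubulin gene, was among the 5 largest losses in normalised counts, at 44530, 43180 and 44830 and then at 24390, 25840 and 26110 (-0.8).

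The named pharmacology of YC-1 was followed in the lists for HIF-1, guanylate cyclase and sulfonation. Of 35 HIF-1 targets, factors and glycolysis genes 8 rose and 2 fell at a median of 0.06, or 5 and 1 without the 2 shallow libraries, and 1 fell without YC-1 replicate 1; 5 rose with scaling to ribosomal protein genes or with all 24 libraries. The 8 genes were 22.9% of the list, near the 21.1% of all genes tested that rose. The 2 that fell were 5.7%, beside 22.8% of all genes tested. VEGFA, the vascular growth factor (chr6:43770184-43786487, plus strand), was at 2028, 2103 and 2129 and then at 5350, 5298 and 5198 (1.34 ± 0.06). ADM, adrenomedullin, was at 103, 80.6 and 110 and then at 348, 383 and 336 (1.86 ± 0.21). Both are also targets of other stress factors, and which factor acted on either gene here was not tested. HIF1A, at 7215, 8967 and 8565 and then at 8761, 8837 and 8038, did not pass the test (0.06, adjusted p = 0.601), nor did the glycolytic enzyme gene PKM (0.06). PFKFB3, which makes an activator of glycolysis, fell (-0.55).

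In the cyclic nucleotide list 8 of 15 phosphodiesterases fell and 1 rose, and of 4 guanylate cyclases and kinases tested 0 passed the test; over the list of 19 the number that fell was 5 without the 2 shallow libraries. PDE10A was at 458, 579 and 626 and then at 183, 170 and 150 (-1.71 ± 0.12), and PDE5A, which breaks down cyclic GMP, was at 468, 587 and 515 and then at 224, 221 and 132 (-1.47 ± 0.27). PDE4D was the member that rose, at 124, 209 and 154 and then at 205, 259 and 283 (0.63 ± 0.19, adjusted p = 0.0152), but its DMSO and YC-1 values overlapped and it was not called without DMSO replicate 1 or without YC-1 replicate 3. GUCY1B3, the beta subunit of soluble guanylate cyclase, was low, at 119, 130 and 114 and then at 151, 136 and 114 (0.14, adjusted p = 0.506). GUCY1A3, the alpha subunit, did not pass the test either (0.03, adjusted p = 0.946).

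SULT1A1 (chr16:28605196-28623625, minus strand) was at 1848, 1559 and 1702 with DMSO and at 1792, 1778 and 1781 with YC-1 (0.07 ± 0.08, adjusted p = 0.505), with the caution that the near-identical SULT1A2, SULT1A3 and SULT1A4 could share its reads. Of 13 genes of sulfonation and sulfate supply tested 0 rose and 1 fell, the sulfite oxidase SUOX (-0.86), and the number that fell was 2 without YC-1 replicate 1, 2 without the third YC-1 library at 16 h and 3 without the second. At limma's unadjusted p under 0.05 the list held 0 higher and 3 lower.

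Of 11 genes of the aryl hydrocarbon receptor pathway 5 rose, with 0 lower (1 at an unadjusted p); 1 or 2 fell when single libraries were left out, and 1 without the 2 shallow libraries. CYP1B1, a cytochrome P450 induced by the receptor, was at 1528, 1809 and 1801 and then at 4917, 4784 and 4419 (1.46 ± 0.07), CYP1A1 at 47.1, 39.7 and 52.9 and then at 155, 147 and 143 (1.66 ± 0.18), and AHR at 690, 1014 and 1074 and then at 1733, 1677 and 1712 (0.91). All 3 were higher in every YC-1 library. Elsewhere SLC30A1, the zinc exporter controlled by the metal sensor MTF1, was at 2373, 2903 and 2482 and then at 9728, 10210 and 8956 (1.90), while the metallothionein MT2A did not pass the test (-0.28). Among lysosome and autophagy genes 8 of 16 rose and 3 fell, led by MAP1LC3B, the LC3 protein of autophagosome membranes, at 2587, 2800 and 2595 and then at 8621, 8661 and 8513 (1.69 ± 0.07).

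**Figure D3:**
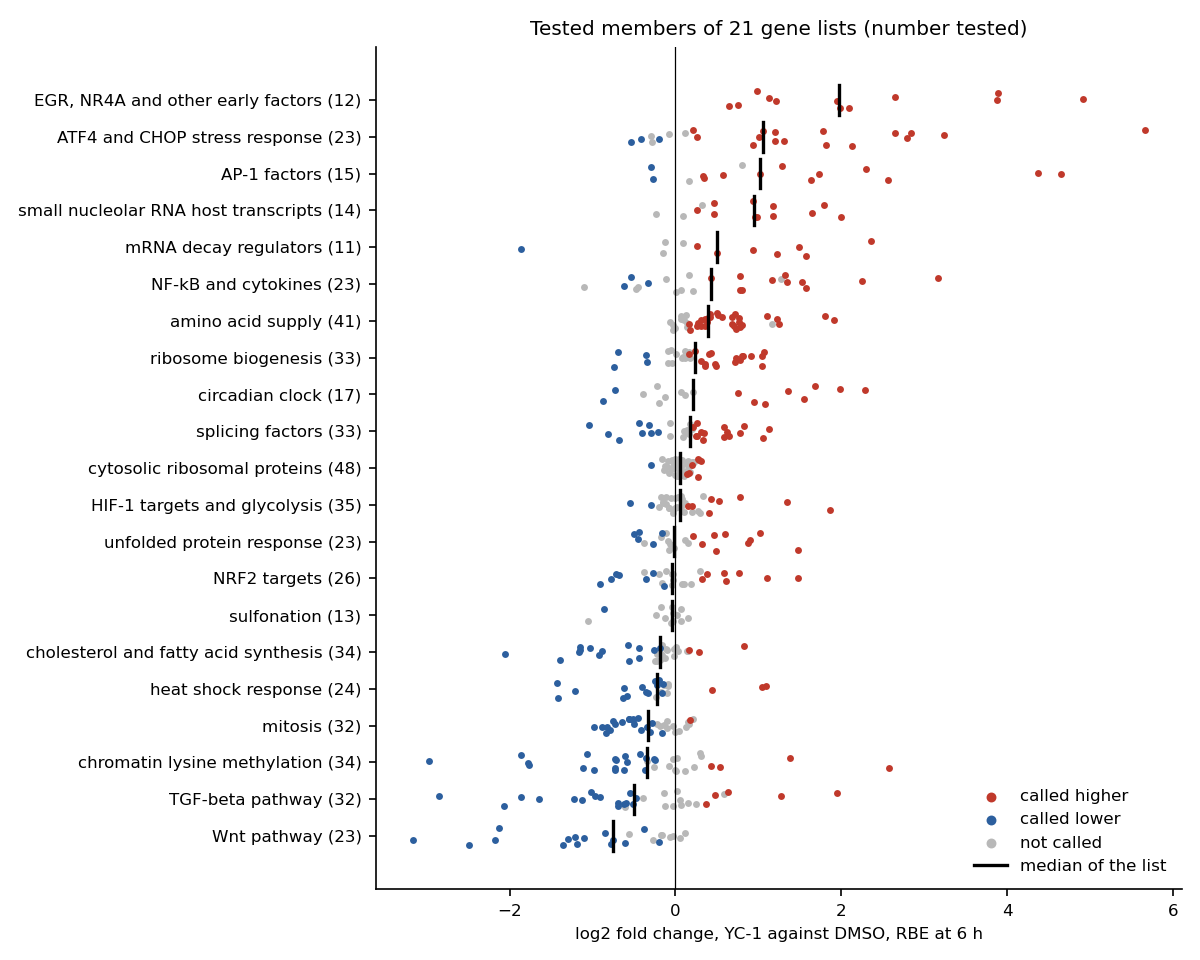
Log2 fold change of YC-1 over DMSO at 6 h for each tested member of 21 gene lists, 1 point per gene, coloured by its call, with the list's median as a bar. The EGR and NR4A, ATF4 and CHOP and small nucleolar RNA host lists lie mostly above 0, with medians of 1.97, 1.05 and 0.95, and the Wnt and TGF-beta lists mostly below, with medians of -0.75 and -0.50.

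The direction of change went with the length of a gene in the genome. The span, from the first to the last annotated base, was known for 14870 of the genes tested (97.0%, GENCODE release 29). Of 3727 genes with a span under 10 kb, 24.6% rose and 11.8% fell, and of 3923 genes of 10 to 30 kb, 32.9% rose and 11.2% fell. With all 24 libraries 15.7% of the genes under 10 kb rose and 6.65% fell. Of 2176 genes of 100 to 300 kb, 3.68% rose and 55.9% fell, and of 498 genes over 300 kb, 2.21% rose and 67.9% fell, with a median log2 fold change of -0.75. Among protein-coding genes with a mean of at least 100, 80.7% of the 331 genes over 300 kb fell and 1.81% rose. Spearman's rho between span and log2 fold change was -0.36 across the 14870 genes, and -0.48 across the 10187 protein-coding genes with a mean of at least 100; genes are not independent replicates and share these 6 libraries. The rho was smaller for the number of exons (-0.17) and for transcript length (-0.19). The share of genes over 300 kb that fell was 52.8% with all 24 libraries and 54.0% without the 2 shallow YC-1 libraries, and 69.7% and 69.1% with libraries scaled to equal sums or to ribosomal protein genes.

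**Figure D4:**
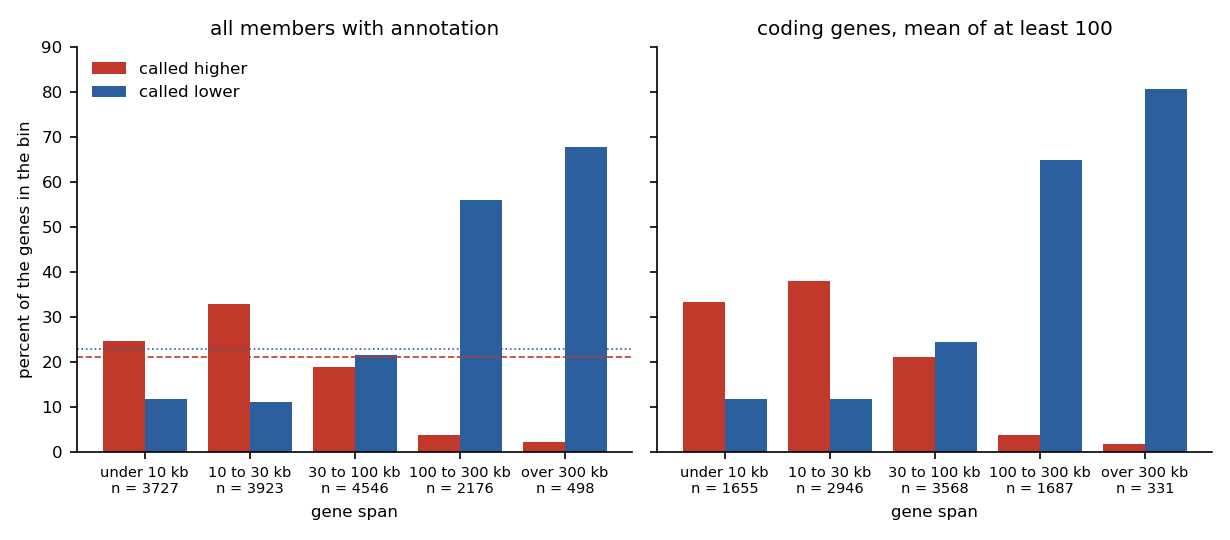
Percent of genes called higher and lower after 6 h of YC-1 in bins of gene span in kb, for all genes with a span in the left panel, where the dashed and dotted lines mark the 21.1% and 22.8% of all tested genes called higher and lower, and for protein-coding genes with a mean of at least 100 in the right panel. The share that fell grows from 11.8% under 10 kb to 67.9% over 300 kb in the left panel.

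Many of the deepest falls named above are long genes, and the contrast extends to the short genes that rose. The 15 highest genes had a median span of 10.2 kb and 4 exons, the 15 lowest 235.5 kb and 10 exons, and all genes with a span 28.6 kb and 7 exons. RBMS3, an RNA-binding protein gene of 1436 kb (chr3:28574791-30010391, plus strand), was at 87.6, 98.3 and 92.8 and then at 3.01, 33.1 and 12.6 (-2.93), and IL1RAPL1, a synaptic receptor gene of 1369 kb, was at 58.1, 82.6 and 79.2 and then at 2.84, 11.6 and 9.47 (-3.20). Long genes that rose were few. PCDH9, a protocadherin gene of 927.6 kb, was at 28.7, 32.5 and 38.5 and then at 72.5, 93.8 and 60.4 (1.15), and was not called without the 2 shallow libraries. MIR100HG, a microRNA host, rose by 0.93. Gene span differed between the lists too, with a median of 5.07 kb for the EGR and NR4A list, 65.1 kb for Wnt and 80.7 kb for chromatin methylation, and its part in the list counts was not tested.

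Families of genes were also counted by symbol, to be read against the 21.1% of all genes that rose and the 22.8% that fell. Of 416 tested ZNF zinc finger genes, a family with many transcriptional repressors, 151 rose (36.3%) and 61 fell (14.7%) at a median of 0.25. The median was 0.21 without the 2 shallow libraries, and with all 24 libraries 106 rose and 38 fell. ZNF425 was the highest, at a mean of 71.3 with DMSO and 594 with YC-1 (3.04 ± 0.11), and ZNF407, which spans 467.8 kb, the lowest (-2.61). Histone genes of the HIST clusters rose in 7 of 14 and fell in 1, or in 4 and 0 without the 2 shallow libraries. Collagens fell in 8 of 23 (34.8%) with 0 higher, led by COL5A1 (-1.57), and in 4 with all 24 libraries. Integrins fell in 5 of 19 with 0 higher, led by the collagen receptor subunit ITGA2 (-1.17), a share of 26.3% that is near that of all genes. Keratins rose in 7 of 11 with 0 lower at a median of 0.34, with KRT81 at 0.65, but in 3 without the 2 shallow libraries and 4 with all 24 libraries.

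Among 448 antisense transcripts tested 63 rose and 59 fell, or 39 and 21 without the 2 shallow libraries. Among 156 intergenic noncoding transcripts 23 rose and 33 fell, or 13 and 24 without these libraries. The antisense shares were 14.1% and 13.2% and the intergenic shares 14.7% and 21.2%, beside 21.1% and 22.8% of all genes tested. Whether the counting used strand is not given in the sources used here, so reads of an antisense transcript and its partner may not be told apart. KRTAP5-AS1, at a mean of 5.05 with DMSO and 80.3 with YC-1 (3.76), and the divergent transcript CSGALNACT2-DT (3.43) rose most, and LINC00205 was among the noncoding transcripts that fell most (-1.88). In all 109 genes were under 10 in every DMSO library and at 10 or more in every YC-1 library, with SELPLG, NR4A3, FOSB and LSMEM1 the highest of them besides the 2 uncertain genes named first, and 65 genes went the opposite way. The latter included TET1, the translational regulator CPEB3 (-3.03) and the homeobox gene OTX1 (-2.59). The filter bears on such genes: 156 members had every DMSO value under 10 and 96 had every YC-1 value under 10. At its edge, 495 members had exactly 3 libraries at 10 or more, with a median mean of 10.7, and 477 genes with exactly 2 were left out, with a median mean of 8.32.

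The same treatment after 16 h in RBE, with its own DMSO libraries, gave 5455 genes higher and 5483 lower. Of the genes that rose at 6 h 2565 (79.4%) were also higher at 16 h, which was 47.0% of all those higher at 16 h, and of those that fell 3027 (86.7%) were also lower, 55.2% of those at 16 h. The effect at 6 h differed from that at 16 h in 6357 genes (41.5%), 3385 with a more positive and 2972 with a more negative effect at 6 h; the split was 5666 and 1420 with libraries scaled to equal sums and 10221 and 165 of 10386 with scaling to ribosomal protein genes, so the direction of this difference over all genes depends on the scaling. In 4442 of the 6357 genes both effects had one sign and the later one was larger. FOS is an example (4.64 at 6 h, 6.25 at 16 h, difference -1.60, adjusted p = 0.00266), and so is HSPA8 (-1.22 and -2.67).

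A smaller set responded more at 6 h: in 236 called genes both effects shared a sign and that at 6 h was the larger, 185 of them higher and 51 lower, and 144 genes that rose at 6 h were lower at 16 h. MYC rose at 6 h and was lower at 16 h (0.47 and -1.29, difference 1.76, adjusted p = 1.84e-07), as was AHR (0.91 and -0.77), and INHBA stood at 1.95 at 6 h and -0.54 at 16 h. VEGFA (1.34 and 0.62, adjusted p of the difference 1.47e-05) and KLF5 (1.44 and 0.17, 8.97e-05) had larger effects at 6 h. The Wnt antagonist DKK1, at 85.9, 130 and 100 with DMSO and 112, 120 and 92.9 with YC-1, had no difference at 6 h that passed the test (0.05) and was lower at 16 h (-3.32, adjusted p of the difference 1.73e-05).

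In the other line, SNU1079, at 6 h, 2379 of the same genes were higher and 2671 lower. Of the genes that rose in RBE 1653 (51.2%) were also higher in SNU1079, which was 69.5% of those higher there, and of those that fell 1976 (56.6%) were also lower, 74.0% of those lower there; 32 genes in each direction were called the opposite way. The effect differed between the lines in 261 genes (1.7%), 143 with a more positive effect in RBE and 118 with a more negative one. This count depended on single libraries, since it was 1442 without SNU1079 YC-1 replicate 1 and 124 at the lowest. When the replicate number was also fitted it was 40, with 14 more positive and 26 more negative in RBE. ATF3 (5.66 in RBE, 5.18 in SNU1079), POLR2A (2.06 and 2.61) and MAML2 (-3.78 and -3.81) were alike in direction. ATF4 differed, with a rise in SNU1079 (1.04) and no called change in RBE (difference -1.12, adjusted p = 0.000812), and ASNS rose more in SNU1079 (2.83, difference -1.59, adjusted p = 0.000129). The sterol gene SQLE fell in RBE but was at 0.05 in SNU1079 (adjusted p of the difference 0.016). CYP1A1 rose in RBE and was at -1.25 in SNU1079 (adjusted p of the difference 0.00262), and HSPA5 rose more in RBE (0.87 against 0.22, 0.0184).

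**Figure D5:**
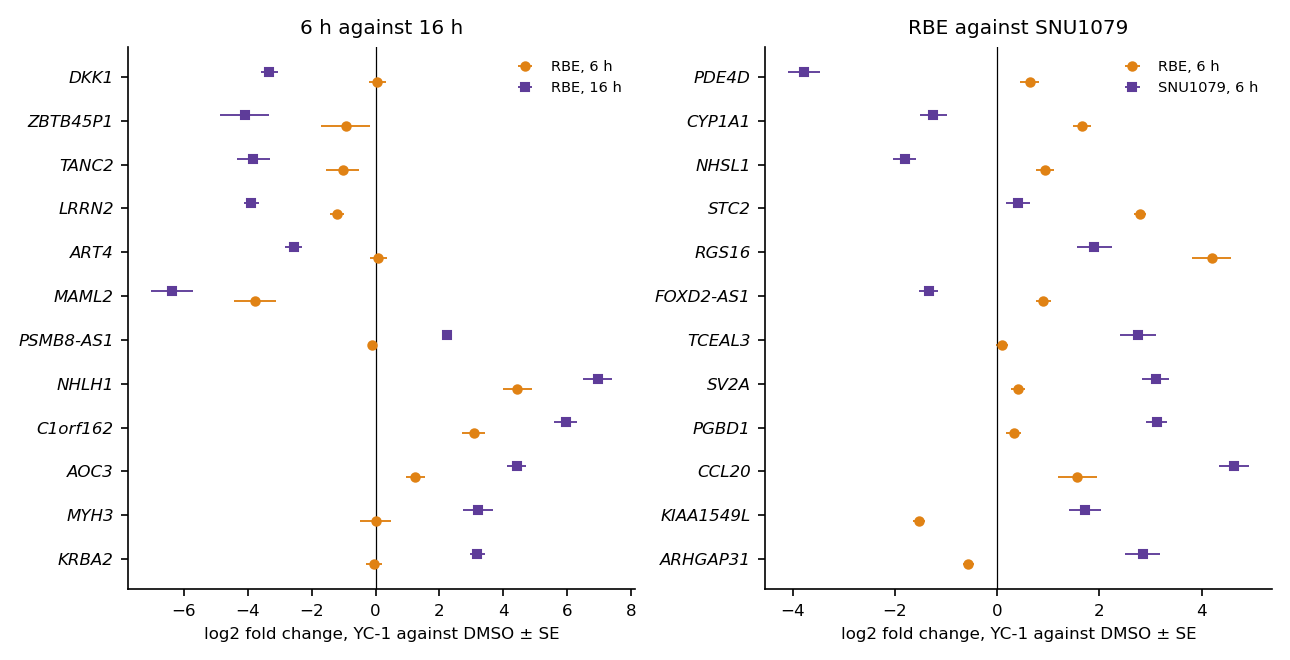
Log2 fold change of YC-1 over DMSO across, with SE as bars, 1 gene per row. RBE at 6 h is shown beside RBE at 16 h (left) and beside SNU1079 at 6 h (right). The genes are those with the 6 largest called differences each way and a mean of at least 100 in one of the groups. DKK1 lies near 0 at 6 h and at -3.32 at 16 h, and PDE4D lies at 0.63 in RBE and at -3.77 in SNU1079.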

How the data were processed

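Poly(A) RNA of RBE cells was sequenced from stranded libraries, per the labels' protocols. The authors aligned reads to hg38 with STAR and used DESeq2, per the submitters' processing notes; the sources used give no versions, counting tool, strand setting or annotation. The deposited values are a signal per gene, normalised counts that the authors scaled between libraries; they are not whole reads, so no count model was run, and depth is known only roughly from the spacing of low values.

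Gene symbols came from the deposited table, with 4727 names added by Ensembl identifier, and 27 symbols that had become dates were named the same way. Genes with at least 10 in at least 3 of the 6 libraries were tested with limma 3.58.1 (R 4.3.3) on log2(normalised count + 1), two-sided, with an intensity trend and Benjamini-Hochberg adjustment over 15327 genes, at an adjusted p under 0.05. A fold change on this scale understates low genes. One mean was fitted for each of the 4 RBE groups (12 libraries, 8 residual degrees of freedom); SNU1079 stayed out because 3 of its libraries stand apart, and the 12 libraries at 6 h were fitted for the difference between lines. A single gene tested by exact permutation of 3 against 3 could not go below p = 0.1. On simulated data the fit recovered 74% of 100 changes of size 1 and 94% of 100 of size 2 on the log2 scale, with 5.08% of 177 calls false, over 15327 genes. The simulated noise was normal with the fit's own variances, and far fewer genes were changed than were called in the data. These rates therefore do not measure the accuracy of the real calls.

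Gene lists, families, motifs and comparisons were chosen with earlier results of these data known. Named are the 15 highest and 15 lowest called genes without overlap and with a mean of at least 100 in one group, the 5 largest gains and losses, up to 5 called and 2 uncalled members per list and up to 3 per family, the 6 highest genes under 10 in all libraries of one group only, the 6 largest differences each way, the 5 longest genes each way, the 5 leading noncoding genes each way and 16 genes of interest such as SULT1A1 and HIF1A; genes that follow ATF3 were not used, since the libraries fall into separate clusters. ARC, AVPI1, CDKN1A, CHAC1, EIF2AK4, EPCAM, PRC1, SESN2, SULT1A4, TNFRSF10B, TRIB3 and ZNF547 were named after their values were seen. Gene positions and spans are from GENCODE release 29 (GRCh38), promoter windows from RefSeq (GRCh38.p14). Some genes and lists that the rule names are not reported here. Alternatives tried were pseudocounts of 0.5 and 5, other filters, scalings and variance settings, other sets of libraries, a replicate block and leaving out single libraries. Figures were drawn with matplotlib 3.10.9.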

Additional observations from a re-analysis of the deposited data

Results flagged for a closer look

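The effect of YC-1 in RBE differed between 6 h and 16 h in 6357 genes by limma's test of the difference (adjusted p under 0.05), and the genes with the largest differences are given here as 6 h minus 16 h on the log2 scale. The effect was more positive at 6 h for DKK1, a Wnt antagonist (3.37; 0.05 at 6 h and -3.32 at 16 h), for the pseudogene ZBTB45P1 (3.17), for the scaffold gene TANC2 (2.79), for LRRN2 (2.69), for the blood group enzyme gene ART4 (2.64) and for MAML2 (2.58), which fell at both times. It was more negative at 6 h for KRBA2 (-3.23), which stood at -0.05 at 6 h and 3.19 at 16 h, for the embryonic myosin gene MYH3 (-3.21), for the amine oxidase gene AOC3 (-3.17), for C1orf162 (-2.88), for the neural factor gene NHLH1 (-2.52) and for PSMB8-AS1 (-2.36). AOC3, C1orf162 and NHLH1 rose at 6 h (1.25, 3.07 and 4.43) and stood higher still at 16 h (4.42, 5.95 and 6.95).

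Between the lines at 6 h the effect differed in 261 genes, given here as RBE minus SNU1079. The phosphodiesterase gene PDE4D had the largest positive difference (4.41, adjusted p = 0.000619 by limma): 0.63 in RBE and -3.77 in SNU1079, where its mean went from 152 to 11.2 normalised counts. Positive differences were also found for CYP1A1 (2.91), NHSL1 (2.76), STC2 (2.38), RGS16, a brake on G protein signalling (2.29), and FOXD2-AS1 (2.25). STC2 was near 0 in both SNU1079 groups, so no response could have been measured there. Negative differences were found for ARHGAP31 (-3.41), KIAA1549L (-3.25), the chemokine CCL20 (-3.06), PGBD1 (-2.80), SV2A (-2.70) and TCEAL3 (-2.66). Of these, ARHGAP31, KIAA1549L, SV2A and TCEAL3 had SNU1079 DMSO means near 0, while CCL20 went from 8.81 to 245 there.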

How the results depend on the processing

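The 6723 calls of YC-1 against DMSO at 6 h became 4195 with all 24 libraries, 4115 without the 2 shallow YC-1 libraries (chosen after seeing the data) and 1703 with a log2 fold change of at least 1 also required. Leaving out single libraries gave 5751 to 6908, and the other scalings, filters, pseudocounts and variance settings kept the count within 1.5 times. The 6357 differences between times became 3241 with all 24 libraries and 10386 with scaling to ribosomal protein genes (10221 and 165 in the 2 directions; the median difference moved from 0.04 to 0.87), and 7086 with equal sums (5666 and 1420). The 261 differences between lines became 40 with the replicate block, and 124 to 1442 when single libraries were left out; the cause was not tested. The replicate block gave 6591 calls in place of 6723. Same-numbered DMSO and YC-1 libraries of RBE at 6 h had correlations of deviations of -0.01, 0.05 and -0.06. These show no strong shift shared by number but cannot show whether the samples were paired, and SNU1079 was not examined. With both times pooled the direction turned for DKK1 (-1.63), MYC (-0.41), NQO1 (0.39), GUCY1A3 (-1.02) and PDE4D (-0.28), by construction, since 16 h libraries then enter. Depth limits low genes: the median standard error was 0.315 under a mean of 100 and 0.0799 at 1000 or more.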

Other observations

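Values of further families are given as a description, beside the 21.1% of all genes that rose and the 22.8% that fell. Of 9 ABC efflux pumps tested 4 fell and 1 rose: ABCA1, which exports cholesterol, went from a mean of 1037 to 438 normalised counts (-1.23) and ABCC1 from 2452 to 1213 (-1.01). Of 34 potassium channel genes 9 fell (26.5%) and 4 rose, or 7 and 1 without the 2 shallow libraries, with KCNQ5 at -2.01, and of 29 protocadherins 9 fell and 2 rose, or 5 and 1. Among solute carriers, 45 of 214 rose (21.0%) and 53 fell (24.8%), shares near those of all genes, or 25 and 33 without the 2 shallow libraries. SLC25A25, a calcium-regulated mitochondrial carrier, was at 702, 622 and 600 and then at 3942, 4179 and 4008 (2.66), and the aspartate and glutamate carrier SLC25A13 fell (-1.91). Of 30 forkhead factors 7 rose and 7 fell (23.3% each), near the shares of all genes, or 4 and 5 without the 2 shallow libraries, with FOXO1 lower (-2.0) and FOXC1 higher (1.64). The translation initiation genes EIF4A2 and EIF1 each rose by 0.98, and the RNA helicase genes DDX17 (-0.86) and DDX5 (-0.70) fell.

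Among genes of under 10 kb the number of exons went with the share that rose: 37.1% of those with 8 or more exons rose and 6.35% fell, against 20.7% and 13.2% of single-exon genes. On chromosome 19, which is dense in short genes, 23.6% of 997 genes rose and 10.6% fell, while on chromosome 18 the shares were 21.0% and 31.7%. Both are descriptions across genes with no test.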
